A study of Homo sapiens with 2 samples.

Results

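The 59 genes described here encode the enzymes that write and erase histone acetylation and the EPC and ING subunits of acetyltransferase and deacetylase complexes. They also encode proteins outside the BET family that carry a bromodomain or YEATS domain. They were taken from a list of names and looked up by symbol, alone or as one part of a joined name, and rows of one symbol were summed. All 59 were found among 51354 symbols. By role they were grouped as 10 acetyltransferases, 15 deacetylases, 27 bromodomain or YEATS readers and 7 EPC and ING subunits. Of the 59, 58 stood at 1 RPKM, a read count scaled to transcript length and library depth, or more in at least 1 library, and the exception was HDAC9.

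The cells were C4-2B, a prostate cancer line of the LNCaP lineage that the labels describe as bone-metastatic, castration-resistant and androgen-independent. The control group received DMSO, the vehicle, and the treated group received 2.5 µM MA4-022-1, which the labels call a BET-kinase inhibitor. Each group held 1 library of rRNA-depleted total RNA, so the differences have no replicate check, no p-value is printed, and treatment and library cannot be told apart. How long the cells were exposed is not stated in the labels.

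Acetylation of lysines on histone tails loosens chromatin and creates docking sites for bromodomains and YEATS domains. Acetyltransferases add the group from acetyl-CoA, zinc-dependent HDACs and NAD-dependent sirtuins remove it, and readers bring remodelling or transcription complexes to it. BET proteins are the bromodomain proteins that BET inhibitors displace, and most other bromodomains bind those inhibitors weakly. In prostate tumours CREBBP and EP300 are known as coactivators of hormone-driven transcription.

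From the steps between low values, the depth came to 27041396 reads in vehicle cells and 19833729 in treated cells. All 10 prostate luminal markers were expressed, a joined row counting for each marker in it. Of these, 6 were higher with MA4-022-1 and 4 lower. HOXB13 had the lowest ratio of them, at 54.8 against 31.7 RPKM (here and below vehicle first, then MA4-022-1). None of 4 basal markers (sums of 0.802 and 1.08 RPKM) and none of 6 leukocyte and endothelial markers (0.204 and 0.551) reached 1 RPKM. Of 5 fibroblast markers, COL1A1 did, at 1.19 against 5.03 RPKM, and of 4 neuroendocrine markers CHGB and SYP did, with list sums of 2.72 and 5.21. Of 20 genes of S phase and mitosis, 18 were at least 2-fold lower with MA4-022-1, as were 9.02% of 11303 expressed protein-coding symbols. These 20 were listed with earlier results of these data known. Of the 59 genes, 5 had their value in a row that joined them to a neighbour, namely KAT2A with RAB5C, HDAC10 with MAPK12, SIRT7 with MAFG, BRD9 with ZDHHC11 and ZDHHC11B, and BAZ1A with a clone-named gene, and those values cannot be assigned to the gene alone. For 6 of the 59, additional rows on patch scaffolds were listed at 0 in both libraries.

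Most of this machinery lay within 2-fold between the libraries, as did most protein-coding symbols. On the scale of log2 of RPKM + 1, MA4-022-1 over vehicle, 53 of 58 expressed genes lay within 2-fold, 2 lay beyond it on the higher side and 3 on the lower side. The higher genes were EPC1, a subunit of the NuA4/TIP60 acetyltransferase complex, and BAZ2A, a bromodomain protein of ribosomal gene silencing. The lower genes were the readers ATAD2 and YEATS4 and the remodelling ATPase SMARCA2. Among 11303 expressed protein-coding symbols read by the same rule, 12.9% lay beyond 2-fold, 3.9% higher and 9.02% lower, against 8.62% of these genes. At 1.5-fold, 17 of 58 lay beyond the threshold, 8 higher and 9 lower, where the background was 34.2%, with 13.1% higher and 21.2% lower. The median log2 ratio was 0.04 over the 58 genes and -0.09 over all protein-coding symbols, of which 5011 of 11303 were above 0 and 6292 below. Scaled to equal sums, these medians were -0.086 and -0.21. With the median of 12 housekeeping controls set to 0, they were 0.18 and 0.043.

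The 12 housekeeping controls themselves had log2 ratios from -0.62 to 1.07, with 1 of them beyond 2-fold. Setting their median to 0 shifted RPKM ratios by 0.15 before the 1 was added, and low genes by less. The background was then 5.95% higher and 7.05% lower. On that scale ING5 joined the higher genes at 1.045 and SMARCA2, at -0.92, left the lower ones. With equal sums, a shift of -0.13 of the same kind, BAZ2A stood at 0.96, just inside 2-fold. EPC1, ATAD2 and YEATS4 lay beyond 2-fold under each of the 5 alternatives that can move their ratios, 2 other pseudocounts and 3 scalings. A bulk library cannot tell fewer cells with a transcript from less of it per cell.

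**Figure D1:**
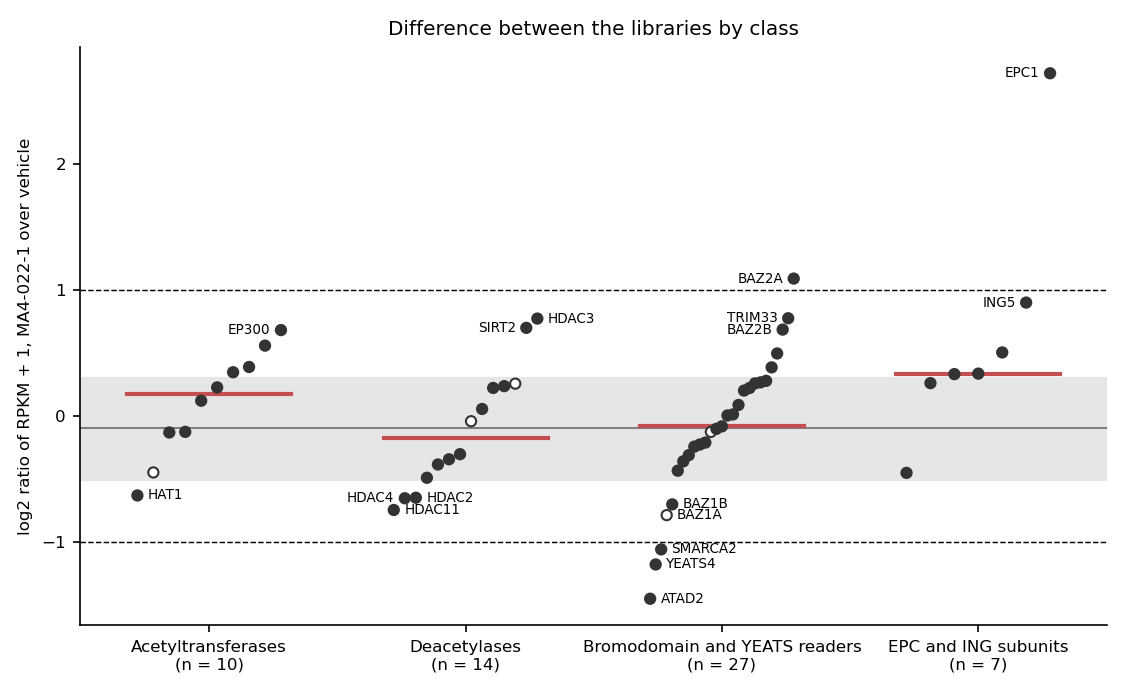
Each point is 1 of the 58 expressed genes, placed by its log2 ratio of RPKM + 1, MA4-022-1 over vehicle, and grouped by class. Red bars are class medians, the grey line and band are the median and quartiles of 11303 protein-coding symbols, dashed lines mark 2-fold, open points are genes in joined rows, and names are given beyond 1.5-fold. EPC1 at 2.72 stands above the other points, and the 10 acetyltransferases and 14 deacetylases all lie between the dashed lines.

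EPC1 had the largest difference of the list. It encodes a scaffold on which the catalytic subunit of NuA4/TIP60 is assembled. Its level was 13.05 RPKM in vehicle cells and 91.7 RPKM in treated cells, which is 6.59-fold higher, or 2.72 in log2, and its locus is hg19 chromosome 10, 32555217 to 32667726. Counting error alone gave it a 95% interval from 2.73 to 2.90 in log2 of RPKM without the added 1. Intervals here and below are of this kind, exact (Clopper-Pearson), with reads estimated from the median annotated coding transcript length, and they leave out PCR duplicates and the spread between cultures. For genes with many short annotated transcripts that median may be too short, such as 559 nt for EP300, whose longest transcript has 9587 nt. Reads would then be underestimated and the interval too wide. The EPC1 ratio lay above those of 99.96% of protein-coding symbols.

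The 4 other rows at the EPC1 locus stood at no more than 4.14 RPKM in either library. EPC2, the paralogue that can take the same place in the complex, was at 11.4 against 8.06 RPKM. EPC1 made up 53.4% of the summed RPKM of the pair under vehicle and 91.9% under MA4-022-1, so the treated library held far more EPC1 than EPC2. Annotated EPC1 transcripts range from 447 to 7386 nt, and RPKM divides by length, so a shift between short and long transcripts would also move this value. The deposited tables give 1 value per gene, so the part of transcript choice was not tested.

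RefSeq lists 2 start sites for EPC1, and the deposited tables hold 1 value for the gene. Their promoters, 250 bases before to 50 after the start, are shown with those of the other members beyond 2-fold that matched the promoter table, each at its most upstream start. Coordinates of these sequences are on GRCh38.p14, not on the hg19 of the expression tables. Capitals mark matches, on either strand, to 4 motifs: E2F sites (TTTCCCGC, TTTGGCGC or TTTCGCGC), the E-box (CACGTG, the same on both strands), the box named by its letters CCAAT, and the ETS core (CCGGAAG).
EPC1, upstream start, chr10:32378720-32379019, minus strand: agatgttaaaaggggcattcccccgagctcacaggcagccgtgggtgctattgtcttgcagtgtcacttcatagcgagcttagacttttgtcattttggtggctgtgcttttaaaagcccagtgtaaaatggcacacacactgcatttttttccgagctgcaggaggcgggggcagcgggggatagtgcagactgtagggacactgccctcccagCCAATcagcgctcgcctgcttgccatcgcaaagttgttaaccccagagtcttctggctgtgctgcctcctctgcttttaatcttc
EPC1, downstream start, chr10:32347109-32347408, minus strand: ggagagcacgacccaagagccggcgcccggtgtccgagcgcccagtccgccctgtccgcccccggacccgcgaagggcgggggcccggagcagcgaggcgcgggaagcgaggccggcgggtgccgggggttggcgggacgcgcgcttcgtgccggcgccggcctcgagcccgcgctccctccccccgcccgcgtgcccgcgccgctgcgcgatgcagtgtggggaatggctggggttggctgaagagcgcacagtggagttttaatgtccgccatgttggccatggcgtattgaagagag
BAZ2A, chr12:56636310-56636609, minus strand: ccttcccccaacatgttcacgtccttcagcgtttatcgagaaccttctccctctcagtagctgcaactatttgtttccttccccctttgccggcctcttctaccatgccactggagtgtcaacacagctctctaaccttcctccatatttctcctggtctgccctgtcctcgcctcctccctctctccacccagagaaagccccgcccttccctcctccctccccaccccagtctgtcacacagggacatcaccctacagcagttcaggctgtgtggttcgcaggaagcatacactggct
YEATS4, chr12:69359493-69359792, plus strand: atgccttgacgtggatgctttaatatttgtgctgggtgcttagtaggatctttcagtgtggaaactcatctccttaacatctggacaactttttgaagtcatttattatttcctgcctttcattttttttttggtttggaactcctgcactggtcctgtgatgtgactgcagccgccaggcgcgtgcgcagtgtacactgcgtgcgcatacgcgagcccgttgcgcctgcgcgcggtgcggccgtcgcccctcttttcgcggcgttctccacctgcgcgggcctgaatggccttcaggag
SMARCA2, chr9:2015097-2015396, plus strand: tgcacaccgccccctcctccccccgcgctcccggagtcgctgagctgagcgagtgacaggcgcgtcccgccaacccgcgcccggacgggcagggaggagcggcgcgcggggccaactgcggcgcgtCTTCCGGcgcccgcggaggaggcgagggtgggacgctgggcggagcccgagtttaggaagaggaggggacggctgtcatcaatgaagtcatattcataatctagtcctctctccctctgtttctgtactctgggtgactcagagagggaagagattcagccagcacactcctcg

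The upstream EPC1 promoter held a CCAAT match at base 216 of the window, and the downstream one held none of the 4 motifs. CCAAT occurred in 35.7% of the 27305 promoters at the most upstream start of each gene. This set was not filtered by gene type or expression, unlike the background of expressed protein-coding symbols used elsewhere. The SMARCA2 window held an ETS match at base 127, a motif found in 10.6% of promoters. The BAZ2A and YEATS4 windows held no match. Of the 59 genes, 49 matched the promoter table. Among these, 12 windows held the ETS motif, 13 CCAAT, 4 the E-box (7.41% of all promoters) and 3 an E2F motif (2.79% of all). The 3 with an E2F motif were BRD7, BRPF3 and SIRT6, at log2 ratios of -0.36, -0.24 and -0.49, so none of them lay beyond 2-fold. ATAD2, the gene with the lowest ratio, was among the 10 without a match in the promoter table, so its promoter was not scanned.

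Of the 7 EPC and ING genes, 6 had ratios above 0, as did 5011 of 11303 protein-coding symbols. ING proteins carry a PHD finger that reads methylated H3K4 and tie their complexes to active genes. ING5, a subunit of the HBO1 and MOZ/MORF acetyltransferase complexes, stood at 15.3 against 29.5 RPKM, 1.87-fold higher, with an interval from 0.85 to 1.04. ING4, of the HBO1 complex, was at 48.9 against 61.9 RPKM, and ING3, of NuA4/TIP60, at 17.2 against 20.8. ING1 and ING2 belong to SIN3 deacetylase complexes. They were at 4.84 against 7.29 and 8.76 against 11.3 RPKM. The median of the class was 0.34, against -0.09 over all protein-coding symbols.

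**Figure D2:**
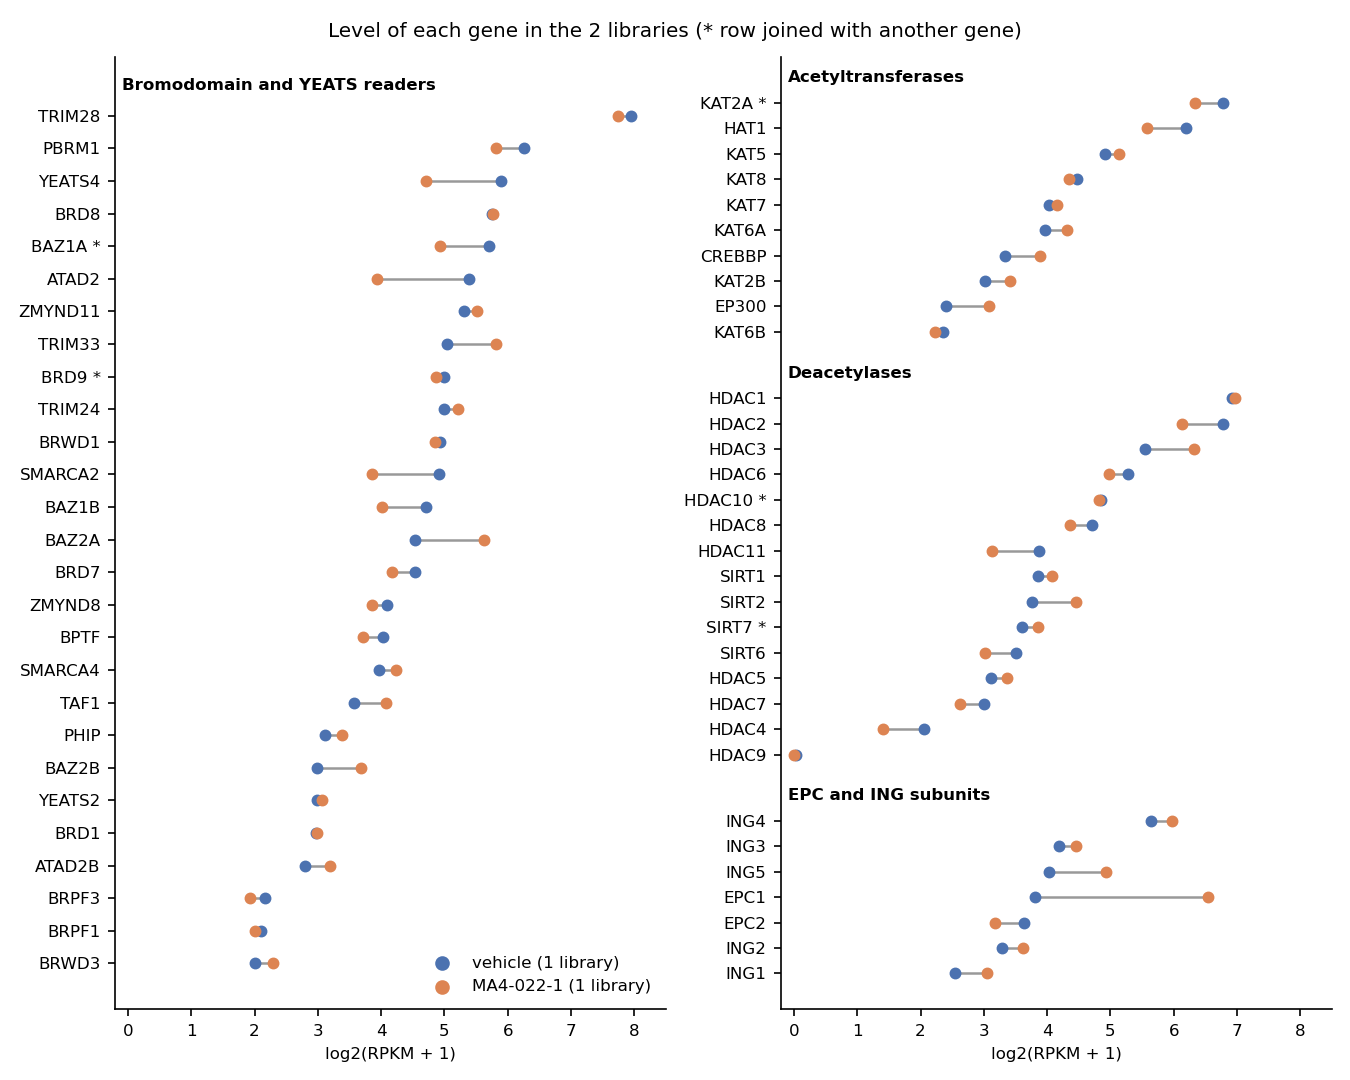
Each line is 1 gene, with its level as log2 of RPKM + 1 in the vehicle library (blue) and in the MA4-022-1 library (orange), ordered within its class by the vehicle level. An asterisk marks a row joined with another gene. The longest distance between the points is that of EPC1, and TRIM28 has the highest level in both libraries, at 245 and 212 RPKM.

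None of the 10 acetyltransferases lay beyond 2-fold, where the background was 12.9%, and their median log2 ratio was 0.18. EP300 and CREBBP, closely related enzymes that acetylate H3K18 and H3K27, were both higher. EP300 stood at 4.29 against 7.49 RPKM, 1.61-fold higher, with an interval from 0.20 to 1.43. CREBBP stood at 9.08 against 13.9 RPKM, 1.47-fold higher, with an interval from 0.29 to 0.93. Their sum went from 13.4 to 21.4 RPKM, and CREBBP made up 67.9% of it under vehicle and 64.9% under MA4-022-1.

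HAT1, which acetylates newly made histone H4 before it is placed on replicated DNA, was the lowest of the class in ratio. It stood at 72.5 against 46.5 RPKM, 1.55-fold lower, with an interval from -0.74 to -0.54. The genes of S phase and mitosis had a median of -2.20 in the same libraries, and their part in the HAT1 and ATAD2 values was not tested. KAT2A and KAT2B are the alternative catalytic subunits of SAGA and ATAC. The row that joins KAT2A with RAB5C was at 109 against 79.6 RPKM and KAT2B at 7.11 against 9.63.

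The MYST enzymes had log2 ratios between -0.13 and 0.35. KAT5, the catalytic subunit of NuA4/TIP60, stood at 29.1 against 34.3 RPKM, and KAT6A at 14.6 against 18.9. KAT6B, the paralogue of KAT6A in the MOZ/MORF complexes, was at 4.11 against 3.67 RPKM. KAT7, the H3K14 enzyme also called HBO1, was at 15.4 against 16.8, and KAT8, the H4K16 enzyme also called MOF, at 21.2 against 19.3, and both changed sign with the scaling. The counting intervals of KAT6B, KAT7 and KAT8 spanned 0.

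The 14 expressed deacetylases also all lay within 2-fold, with a median of -0.17. The class I enzymes differed from one another. HDAC1 was at 120 against 125 RPKM, with an interval from -0.01 to 0.13 and a sign that depended on the scaling. HDAC2, its partner in the SIN3, NuRD and CoREST complexes, stood at 109 against 69.0 RPKM, 1.57-fold lower, with an interval from -0.81 to -0.50. Of the summed RPKM of both, HDAC1 made up 52.4% under vehicle and 64.4% under MA4-022-1. HDAC3, the enzyme of the NCoR complex, was the highest deacetylase in ratio, at 45.6 against 78.8 RPKM, 1.71-fold higher, with an interval from 0.69 to 0.89. HDAC8, a class I enzyme that deacetylates cohesin, was at 25.03 against 19.5 RPKM.

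Class II enzymes shuttle between nucleus and cytoplasm or act on cytoplasmic proteins. HDAC4 was at 3.17 against 1.66 RPKM, and HDAC5 at 7.69 against 9.26. The HDAC4 interval, from -2.02 to 0.08, spanned 0, but it rests on a length of 565 nt where annotated transcripts reach 8990 nt. HDAC7 stood at 6.99 against 5.13 RPKM, and HDAC9 at 0.0184 RPKM under vehicle, about 1 read, and listed at 0 under MA4-022-1, so no fold is given. HDAC6, the tubulin deacetylase, was at 37.8 against 30.5 RPKM. The row that joins HDAC10, a polyamine deacetylase, with MAPK12 was at 27.98 against 27.2. HDAC11, the class IV enzyme, had the lowest ratio of the deacetylases, at 13.6 against 7.71 RPKM, 1.68-fold lower, with an interval from -1.14 to -0.50.

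Among the sirtuins, SIRT2, mostly cytoplasmic and active on tubulin and H4K16, stood at 12.5 against 21.0 RPKM, 1.63-fold higher, with an interval from 0.53 to 0.96. SIRT1, a nuclear deacetylase of histones and p53, was at 13.5 against 15.95 RPKM. SIRT6, which acts on H3K9 and telomeric chromatin, was at 10.4 against 7.10, and the row of SIRT7 and MAFG at 11.1 against 13.5. The 10 expressed zinc-dependent HDACs had a median of -0.32 and the 4 sirtuins one of 0.24. The median of all deacetylases, -0.17, was -0.32 without joined rows, -0.040 with at least 5 RPKM and with no filter, and -0.028 with housekeeping controls set to 0.

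Of the 27 readers, 1 lay beyond 2-fold on the higher side and 3 on the lower side, where the background was 3.9% and 9.02%, and their median was -0.08, which became 0.063 with the housekeeping controls set to 0. ATAD2, an AAA ATPase with a bromodomain that binds acetylated histone H4 and is raised in many proliferating tumours, stood at 40.7 against 14.3 RPKM. This was 2.73-fold lower, or -1.45 in log2, with an interval from -1.59 to -1.43 (hg19 chromosome 8, 124332090 to 124428590). Its paralogue ATAD2B was at 5.98 against 8.13 RPKM. ATAD2 made up 87.2% of the pair under vehicle and 63.7% under MA4-022-1, and the sum of the pair went from 46.6 to 22.4 RPKM.

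YEATS4, also called GAS41, brings a YEATS domain to both the NuA4/TIP60 and SRCAP complexes. It stood at 58.2 against 25.2 RPKM, 2.26-fold lower, or -1.18 in log2, with an interval from -1.37 to -1.04 (hg19 chromosome 12, 69753483 to 69784576). YEATS2, the reader of the ATAC complex, was at 6.90 against 7.40 RPKM, and the sign of that ratio depended on the scaling. BRD8, another NuA4/TIP60 subunit, was at 53.0 against 53.2 RPKM. The NuA4/TIP60 genes of the list therefore ranged from YEATS4 at -1.18 to EPC1 at 2.72, with EPC2 at -0.45 and KAT5, ING3 and BRD8 between 0.01 and 0.26.

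The catalytic subunits of BAF, the remodelling complexes with a bromodomain in their ATPase, differed in direction. SMARCA2, or BRM, stood at 29.02 against 13.4 RPKM, 2.08-fold lower, or -1.06 in log2, with an interval from -1.37 to -0.85 (hg19 chromosome 9, 2015342 to 2193624). SMARCA4, or BRG1, which can replace it, was at 14.7 against 17.8 RPKM, with an interval from 0.18 to 0.37. SMARCA2 made up 66.4% of the summed RPKM of both under vehicle and 43.0% under MA4-022-1, and the sum went from 43.7 to 31.2 RPKM. Annotated SMARCA2 transcripts range from 99 to 7061 nt, and a shift between them was not tested. PBRM1, which carries several bromodomains in the PBAF form, was at 75.3 against 55.5 RPKM. BRD7 of PBAF was at 22.1 against 17.0, and the row joining BRD9, of the non-canonical form, with ZDHHC11 and ZDHHC11B was at 31.0 against 28.3.

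The BAZ family differed by branch. BAZ2A, or TIP5, which with SMARCA5 silences ribosomal RNA genes, stood at 22.2 against 48.5 RPKM, 2.13-fold higher, or 1.09 in log2, with an interval from 0.94 to 1.31 (hg19 chromosome 12, 56989380 to 57030600). BAZ2B, its paralogue, was at 6.93 against 11.8 RPKM, 1.61-fold higher, with an interval above 0. BAZ1A and BAZ1B are partners of SMARCA5 in the ACF and WICH remodellers, which act at replicating chromatin. The joined row of BAZ1A was 1.72-fold lower at 51.3 against 29.4 RPKM, and BAZ1B was 1.62-fold lower at 25.2 against 15.1, with an interval from -0.82 to -0.65. BPTF, the reader of the NURF remodeller, was at 15.3 against 12.2 RPKM.

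The TRIM readers were among the more abundant members. TRIM28, the KAP1 corepressor of zinc finger proteins, had the highest level of the 59 genes in both libraries, at 245 against 212 RPKM. TRIM33, a regulator of SMAD signalling, stood at 31.9 against 55.3 RPKM, 1.71-fold higher, with an interval from 0.72 to 0.87. TRIM24, a coactivator of nuclear receptors, was at 30.8 against 36.1 RPKM. TAF1, the largest TFIID subunit, which carries a tandem bromodomain, was at 10.9 against 15.8 RPKM, with an interval from 0.44 to 0.63. ZMYND8 was at 15.98 against 13.5 RPKM and ZMYND11, which reads methylated H3.3, at 38.5 against 44.5.

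The remaining readers had log2 ratios between -0.24 and 0.28. BRD1, BRPF1 and BRPF3 are scaffolds of the MOZ/MORF and HBO1 complexes. BRD1 was at 6.83 against 6.91 RPKM, BRPF1 at 3.30 against 3.01, and BRPF3 at 3.51 against 2.81. The signs for BRD1 and BRPF1 depended on the scaling. PHIP, BRWD1 and BRWD3 share WD repeats and bromodomains. PHIP was at 7.66 against 9.43 RPKM, BRWD1 at 29.5 against 27.9 with a sign that depended on the scaling, and BRWD3 at 3.04 against 3.90.

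Of 19 paralogue pairs, 3 had log2 ratios that differed by 1 or more between their members. These were EPC1 and EPC2, 3.17 apart, ATAD2 and ATAD2B, 1.84 apart, and SMARCA2 and SMARCA4, 1.32 apart, and in each of them the members lay on opposite sides of 0. In all, 9 pairs had members of opposite sign, although the signs of HDAC1 and BRWD1 among them depended on the scaling. The intervals of HDAC4, HDAC5 and KAT6B also spanned 0, and KAT2A and SIRT7 sit in joined rows. Of 11303 protein-coding symbols 5011 lay above 0 and 6292 below, so opposite signs would be frequent in pairs of unrelated genes too. Neither count was set beside such pairs. The pairs closest together were BAZ1A and BAZ1B, 0.09 apart and both lower, and CREBBP and EP300, 0.12 apart and both higher. The median distance within a pair was 0.48, the pair of HDAC7 and the unexpressed HDAC9 included. No replicate sets the spread against which these distances could be tested.

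**Figure D3:**
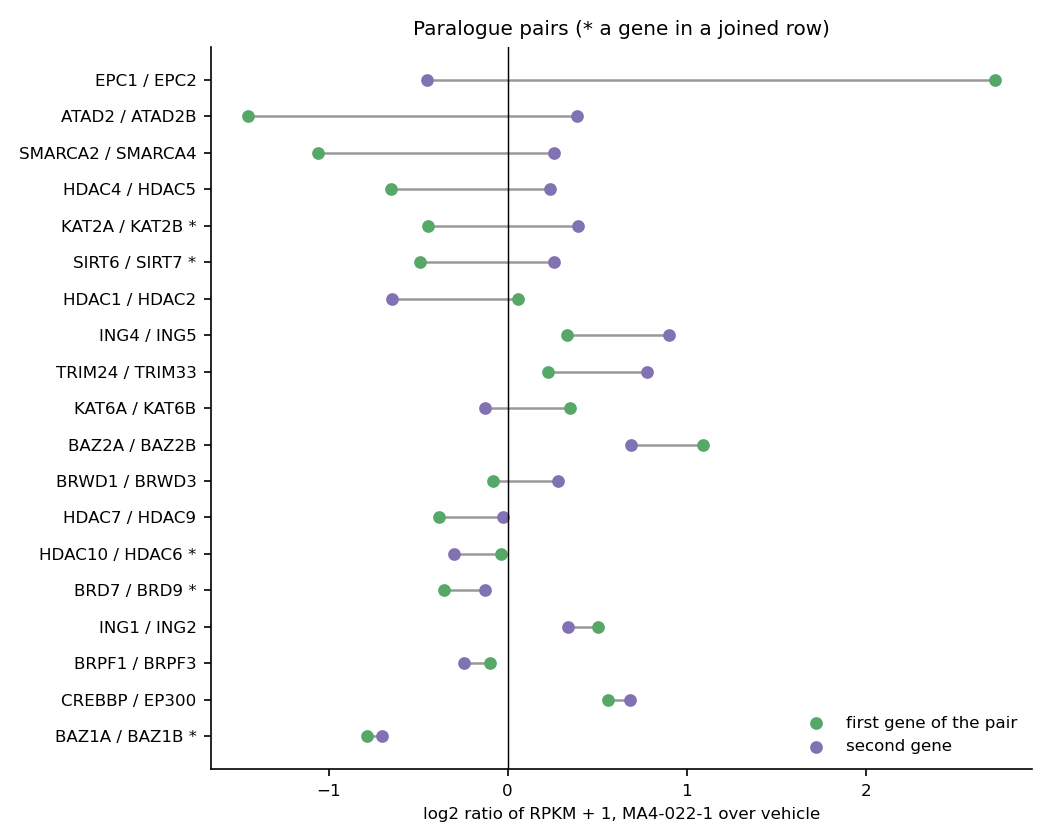
Each line is a paralogue pair, ordered by the distance between its members, with the log2 ratio of RPKM + 1, MA4-022-1 over vehicle, of the first gene in green and of the second in purple. Asterisks mark pairs with a gene in a joined row. EPC1 and EPC2 at the top are 3.17 apart, and BAZ1A and BAZ1B at the bottom 0.09 apart.

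Other genes of the pathway were read from lists of complex partners. Of 105 partners of the acetyltransferase, deacetylase and remodelling complexes, 102 were expressed, 2 of them beyond 2-fold on the higher side and 3 on the lower side, with a median of -0.10. The share beyond 2-fold was 4.90% against the background of 12.9%. CCDC101, or SGF29, a SAGA and ATAC subunit, was 2.29-fold higher at 15.6 against 36.9 RPKM, and ARID2, which defines PBAF, 2.07-fold higher at 10.5 against 22.8. The lower partners were MTA2 of NuRD, at 77.1 against 33.6 RPKM, and SMARCD2 and BCL7C of BAF, at 121 against 55.6 and 18.2 against 7.14 RPKM. None of 12 partners of NuA4/TIP60 lay beyond 2-fold, and their median was -0.37. That of the 4 expressed ISWI partners was -0.48. SAGA and ATAC partners had a median of -0.14, and MOZ, HBO1, MSL and NSL partners one of -0.17. SIN3, NuRD, CoREST and NCoR partners stood at -0.04, and BAF and PBAF partners at 0.03. Among NuA4/TIP60 and ISWI partners 9 of 12 and 4 of 4 ratios were below 0, where the background was 6292 of 11303. The counts and medians of partners were not repeated under the scalings.

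The BET genes stood apart from one another. BRD2 was at 102 against 387 RPKM over 8 rows, and BRD3 at 9.16 against 12.3. Of 7 other expressed genes with a bromodomain or YEATS domain, KMT2A, listed under its older name MLL, was 2.68-fold higher at 5.52 against 16.5 RPKM, and SP100, of PML bodies, 2.44-fold lower at 20.9 against 7.94. Of 10 genes listed around the supply of acetyl-CoA and NAD, 7 lay within 2-fold, 1 was higher and 2 were lower. The background was 3.9% higher and 9.02% lower. In that list 5 ratios were above 0 and 5 below. DLAT of pyruvate dehydrogenase stood at 64.9 against 25.8 RPKM. NAMPT, the rate-limiting enzyme of NAD salvage, was 2.33-fold lower at 234 against 99.8 RPKM. NNMT, which methylates nicotinamide, was at 3.90 against 18.3.

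**Figure D4:**
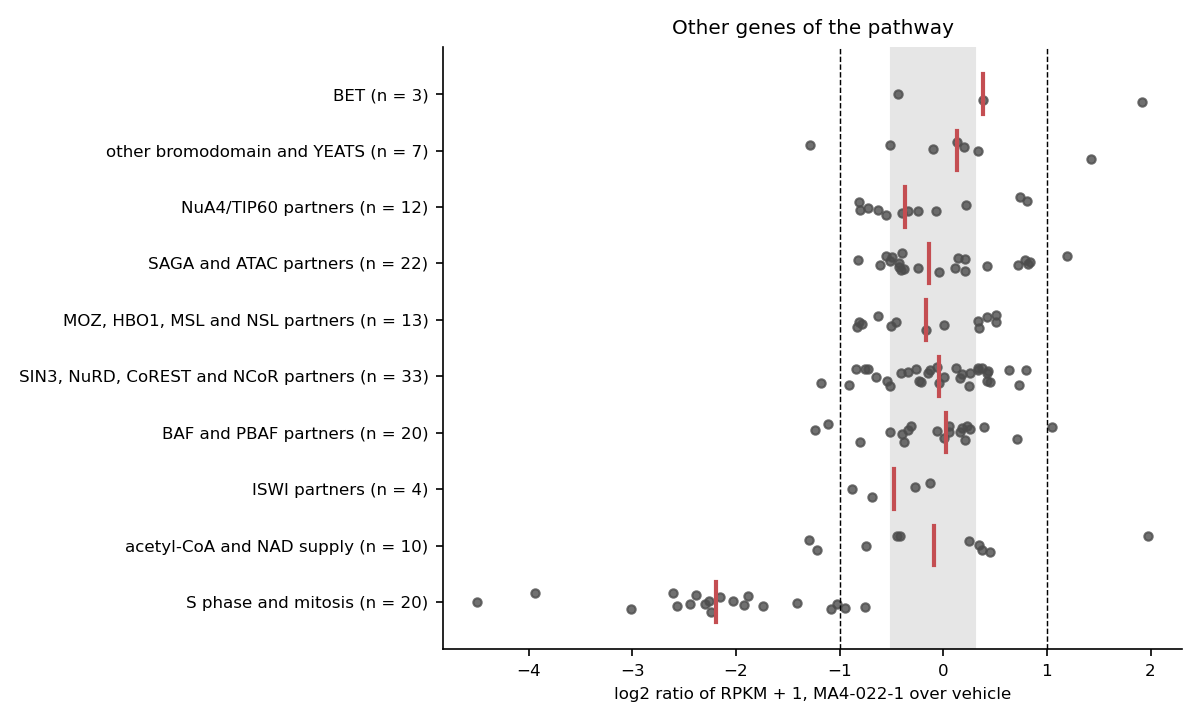
Each point is an expressed gene of the list named at the left, placed by its log2 ratio of RPKM + 1, MA4-022-1 over vehicle, and red bars are list medians. The grey band holds the quartiles of 11303 protein-coding symbols and dashed lines mark 2-fold. Of 102 expressed complex partners 97 lie between the dashed lines. Of the 20 genes of S phase and mitosis 18 lie below -1, against 9.02% of protein-coding symbols.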

How the data were processed

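RNA of 1 vehicle and 1 MA4-022-1 library was compared. Per the labels' protocols, ribosomal RNA was removed from total RNA, which was made into ScriptSeq v2 libraries and sequenced as single reads of 50 bp. Per the submitters' processing notes, TopHat2 2.0.13, Cufflinks 2.2.1 and hg19 were used; the annotation and the strand setting are not given in the sources used here. The authors deposited RPKM per gene, per the file headers, in 62271 rows, of which 2751 without a symbol were left out. Deposited locus starts were read as counting from 0 and are printed from 1.

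The members, lists and paralogue pairs were chosen with earlier results of these data known. The measure was log2 of RPKM + 1, MA4-022-1 over vehicle, with a threshold of 2-fold among genes at 1 RPKM or more in a library. All members are named, with partner genes beyond 2-fold at 5 RPKM or more, up to 4 per list. The S phase and mitosis list is given by its counts and median. The background was every symbol of GENCODE 29 protein-coding type, read by the same rule, so a joined row counts for each symbol in it. Depth came from 1034 processed pseudogenes of 600 to 6000 nt. Depth and effective length were chosen to favour low values within 2% of a whole read. At that choice 87.6% of 241 low values in the vehicle library and 87.0% of 185 with MA4-022-1 lay so. Effective lengths were 198 nt shorter than the locus. The shares come from the fitted values themselves and are no separate check of the depth. Estimated reads per member had a median of 962.5 and 613.5. Of 58 counting intervals, 46 excluded 0, 25 of them higher. Promoters are from RefSeq. The call rule and the interval formula were run on simulated counts with known lengths and changes well beyond 2-fold. That run did not cover the length estimate, the spread between cultures or calls near 2-fold. Python 3.11.15, numpy 2.4.6, pandas 2.3.3, scipy 1.17.1 and matplotlib 3.10.9 were used. Some genes that the lists hold are not reported here.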

Additional observations from a re-analysis of the deposited data

How the results depend on the processing

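No paired analysis was possible because each group held 1 library, and no replicate could be left out. Of 10 alternatives, 5 can move the ratios of these genes (2 pseudocounts and 3 scalings), and under these EPC1 ranged from 2.42 to 2.87, ATAD2 from -1.57 to -1.24 and YEATS4 from -1.30 to -1.03, while BAZ2A (0.96 to 1.24) and SMARCA2 (-1.18 to -0.88) stayed beyond 2-fold in 3 of the 5. A pseudocount of 5 RPKM left 1 member higher and a background of 1.65% higher and 4.50% lower, and one of 0.1 RPKM a background of 6.38% higher. Without the filter on low values the background was 2.44% higher and 5.64% lower and the deacetylase median -0.040, as it was with at least 5 RPKM. Joined rows left out gave a deacetylase median of -0.32. With housekeeping controls set to 0, the background was 5.95% higher, and medians were 0.32 for acetyltransferases, -0.028 for deacetylases, 0.063 for readers, 0.48 for EPC and ING genes, 0.18 for all members and 0.043 for protein-coding symbols. With equal sums over the genes kept, they were 0.051, -0.30, -0.20, 0.22, -0.086 and -0.21, and 1 member was higher. At 1.5-fold, 8 members were higher and 9 lower, 7 pairs were apart, and the background was 13.1% higher and 21.2% lower. The scalings changed the sign of 10 members, the largest of them 0.1246 in size. Each alternative changes only the pseudocount, the scaling factor, the threshold, or which rows and genes enter, so these shifts follow from that setting. Which scaling is right was not tested. Estimated reads were fewest for HDAC9, with about 1 in all, and HDAC4, with 12 in the MA4-022-1 library. The HDAC4 estimate used its median coding length of 565 nt, and its longest annotated transcript, of 8990 nt, would give more reads. Depth alone therefore cannot be named as the limit for HDAC4.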
